A study of Mus musculus with 4 samples.

Results

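The 10 genes described here form the identity set that is tied to the transcription factor GATA6 in large peritoneal macrophages: Gata6 itself, Tgfb2, Ltbp1, Garnl3, Aspa, Prg4, Icam2, Nt5e, Wnt2 and Vsig4. They were taken by gene symbol from the 31253 genes of the deposited matrix, and each symbol matched 1 row. The rule names them and uses no measured value, but the list was drawn up with earlier results of these data known. Their levels were read in macrophages, defined as barcodes with at least 500 genes, at most 10% mitochondrial counts, 2 or more unique molecular identifiers (UMIs, 1 per captured transcript) of Adgre1, the gene of the macrophage surface protein F4/80, and no UMI of the B cell gene Cd79a or the T cell gene Cd3e. These cells were then split by Gata6 detection and by 3 gates: Timd4 at 3 or more UMIs, Folr2 at 2 or more, and Ccr2 at 3 or more.

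The study sorted viable F4/80-positive cells from the mouse peritoneal cavity for single-cell RNA sequencing with a 10x Genomics kit that tags transcript 3' ends. Mice were 24 weeks old, in 4 groups of 1 sample. C57BL/6 mice and Apoe-/- mice made up the normal-diet groups, a further Apoe-/- group had a high-fat diet for 20 weeks, and the last Apoe-/- group had that diet and then 3 mg of the antibody anti-CVI-mAb into the peritoneum. The other groups received buffer, the diet groups were returned to normal chow before the injections, and the Apoe-/- mice, 3 of the 4 groups, lack apolipoprotein E in all tissues and were on the C57BL/6 background, with male sex stated for the diet groups. All samples sit in 1 matrix whose barcodes end in 1 to 4, and neither the labels nor the headers say which ending is which group. The endings are called libraries 1 to 4 below, every value belongs to a library of unknown group, and no genotype, diet or treatment was compared. With 1 library for each group there is no replicate, so no p-value is given, and all intervals are exact 95% intervals that cover counting error only.

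GATA6 is a zinc-finger factor that binds GATA words in DNA. In the peritoneal cavity it is the tissue-specific factor of the large macrophage, the long-lived resident cell with high F4/80 and TIM-4, and it is induced by retinoic acid from stromal cells of the omentum and peritoneal lining. Small peritoneal macrophages and cells newly derived from monocytes have more CCR2, MHC class II or folate receptor and are known for low GATA6. Among the other members, Tgfb2 encodes the ligand transforming growth factor beta 2 and Ltbp1 the protein that tethers latent TGF-beta to the matrix. Wnt2 is a secreted ligand of Frizzled receptors, and Nt5e is CD73, the surface enzyme that makes adenosine from AMP. Prg4 is lubricin, a secreted lubricating proteoglycan, Icam2 is a surface ligand of beta 2 integrins, and Vsig4 is a receptor for complement C3 fragments. Aspa is aspartoacylase, which splits N-acetylaspartate, and Garnl3 is named for a Rap GTPase-activating domain.

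The members lie apart in the genome, and all 10 are annotated as protein coding in GENCODE M21 on GRCm38. Tgfb2 (chr1:186622792-186705989) and Prg4 (chr1:150449412-150466165) are on the minus strand of chromosome 1. Aspa (chr11:73304992-73329596) and Icam2 (chr11:106377656-106388075) are on the minus strand of chromosome 11. Garnl3 (chr2:32986224-33131654), Wnt2 (chr6:17988940-18030585) and Vsig4 (chrX:96247203-96293438) are on minus strands, and Nt5e (chr9:88327197-88372092) and Ltbp1 (chr17:75005568-75392512) on plus strands.

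RefSeq promoter windows on GRCm38.p6, from 250 bases before to 50 bases after an annotated start, were taken for 7 of the 10 members, with 9 windows in all. They were searched on both strands for the word AGATAA, the word AGATAG, the word TGATAA and the word TGATAG, which GATA factors bind. These words were in 2 of the 9 windows, those of Tgfb2 and Wnt2, and in 29.8% of all 32851 windows. The 2 windows are shown because they are the members' promoters that hold a GATA word. That of Vsig4, the member with the highest ratio of variance to mean over cells, is shown beside them as a window without one. Each reads 5′ to 3′ along its gene, minus strand, with GATA words in capitals; the word in Tgfb2 is on the opposite strand at position 1 counted from the start base as 0, and those in Wnt2 are at -246 on the gene's strand and at -9 on the opposite one.
Tgfb2, chr1:186705940-186706239: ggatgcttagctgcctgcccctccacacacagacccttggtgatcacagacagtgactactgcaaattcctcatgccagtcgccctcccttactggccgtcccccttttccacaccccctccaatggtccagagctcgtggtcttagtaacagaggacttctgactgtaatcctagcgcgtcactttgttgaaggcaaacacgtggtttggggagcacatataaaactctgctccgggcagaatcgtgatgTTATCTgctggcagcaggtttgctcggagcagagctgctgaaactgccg
Wnt2, chr6:18030396-18030695: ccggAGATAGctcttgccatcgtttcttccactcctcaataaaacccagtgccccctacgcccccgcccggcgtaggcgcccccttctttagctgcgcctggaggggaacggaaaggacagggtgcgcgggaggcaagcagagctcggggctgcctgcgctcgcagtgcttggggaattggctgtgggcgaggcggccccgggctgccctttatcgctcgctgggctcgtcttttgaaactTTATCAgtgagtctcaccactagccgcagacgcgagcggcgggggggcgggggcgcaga
Vsig4, chrX:96293389-96293688: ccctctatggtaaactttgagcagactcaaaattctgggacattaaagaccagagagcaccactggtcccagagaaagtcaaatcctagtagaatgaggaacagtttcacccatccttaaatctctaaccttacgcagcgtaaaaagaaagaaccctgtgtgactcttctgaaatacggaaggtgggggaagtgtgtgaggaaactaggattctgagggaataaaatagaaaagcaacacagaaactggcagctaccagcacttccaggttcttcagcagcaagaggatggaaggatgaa
A match is a stretch of letters and not a measured binding site. Prg4 and Icam2 had no window in the table. No window of Gata6 was searched, since members' windows on its chromosome were left out.

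Across the whole series, 26811 barcodes were deposited, 6254 to 7338 for each library. The filters kept 3611, 6023, 5311 and 5919 in libraries 1 to 4, and 1538, 4218, 4334 and 5017 of those were macrophages by the rule. Library 1 stands apart: 1936 of its barcodes were over the mitochondrial limit against 296 to 495 elsewhere, macrophages were 42.6% of its kept barcodes against 70.0% to 84.8%, and its macrophages had a median of 8219 UMIs against 12507 to 13951. Only 52 barcode sequences occurred in 2 libraries, 11 of them among macrophages. Apoe read 30.1, 863, 738 and 29778 counts per 1000000 UMIs (CPM) in the macrophages of libraries 1 to 4, and no library was given a genotype from it. Marker genes of mesothelial and stromal cells, which also express Gata6, summed to at most 0.679 CPM in the macrophages of any library, with 6 to 9 of the 13 at 0, and the B cell markers, with Cd79a at 0 by the rule, summed to 149 CPM in library 1 and to 7.21 to 19.1 in the others.

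The level of every member differed between libraries, and for 9 of the 10 the highest and the next highest level were in libraries 3 and 4. Gata6 read 54.9 CPM in library 1 (interval 51.0 to 59.0), 64.4 in library 2 (62.3 to 66.6), 128 in library 3 (126 to 131) and 134 in library 4 (132 to 137). The order ran from library 1 up to library 4 with no overlap between neighbours, and the highest level was 2.45 times the lowest. Over 6300 genes at 20 CPM or more in any library, the median of this ratio was 1.69, and 14.5% of genes had one as large as that of Gata6.

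Both TGF-beta members were lowest in library 2. Tgfb2, the ligand, read 261, 81.4, 336 and 324 CPM in libraries 1 to 4. Ltbp1, its matrix tether, read 127, 67.0, 487 and 476 CPM. Library 1 therefore sat near libraries 3 and 4 in Tgfb2 and far under them in Ltbp1, and the highest level was 4.13 times the lowest for Tgfb2 and 7.26 times for Ltbp1. Wnt2 had the same low point, with 30.9, 8.38, 55.0 and 59.4 CPM, a ratio of 7.09.

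Garnl3 varied most of the 10. It read 18.9 CPM in library 1 (16.7 to 21.4), 31.2 in library 2 (29.7 to 32.7), 271 in library 3 (267 to 275) and 274 in library 4 (270 to 278). Libraries 3 and 4 overlapped, both were far above libraries 1 and 2, and the ratio of 14.5 was reached by 0.444% of the 6300 genes. Aspa, the acylase, read 34.0, 29.3, 111 and 78.0 CPM in libraries 1 to 4, with no overlap between neighbours.

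The surface and secreted members did not share 1 pattern. Nt5e read 10.7, 10.7, 50.1 and 44.8 CPM, so that libraries 1 and 2 overlapped far below the others. Vsig4 read 240, 48.6, 380 and 306 CPM, lowest in library 2 by far, like Tgfb2. Icam2 read 244 CPM in library 1 and 660, 658 and 664 in libraries 2 to 4, which overlapped as neighbours, so that here only library 1 stood low. Prg4 was the steadiest member, with 2555, 2579, 3878 and 3773 CPM and a ratio of 1.52, which 64.1% of the 6300 genes matched or passed.

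**Figure D1:**
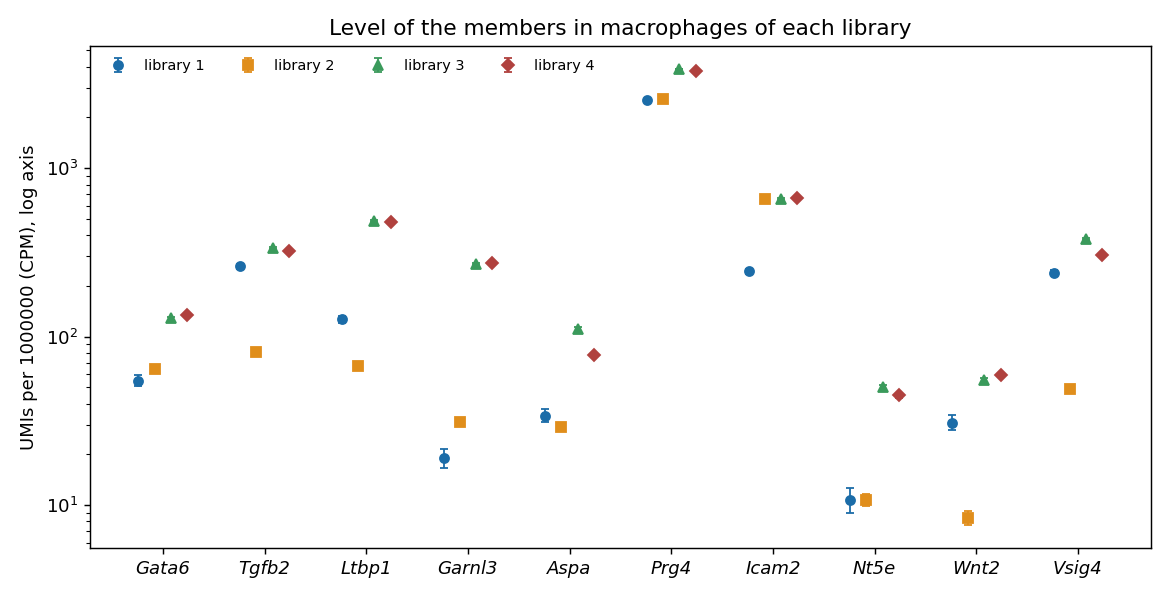
Level of each of the 10 genes in macrophages, in CPM on a log axis, with 1 point per library and exact Poisson 95% intervals that are often smaller than the points. Libraries 3 and 4 lie together at the top for all genes but Icam2, where library 2 reaches the same level, and the widest gap is that of Garnl3, from 18.9 to 274 CPM.

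To compare shares of cells at 1 depth, each cell was thinned to 3000 UMIs, which left out 85, 55, 24 and 29 shallower macrophages in libraries 1 to 4. After thinning, 12.5%, 16.7%, 30.1% and 30.8% of macrophages had a Gata6 UMI. The order followed the CPM. Without thinning the shares were 25.6%, 44.7%, 72.2% and 70.5%, so many cells without a Gata6 UMI at the thinned depth had one in the full data. In B cells of the same libraries, which should lack the gene, the thinned share was 0.520%, 0.547%, 0.380% and 1.59%, with median depths of 9396, 7042, 4848 and 6369 UMIs before thinning.

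The thinned shares of the other members fell into 3 kinds. Prg4 had a UMI in 94.98% to 99.4% of macrophages in the 4 libraries and Icam2 in 46.3%, 79.6%, 80.3% and 80.5%, so both were widespread. Both also had a UMI in many B cells (25.7% to 31.2% for Prg4 and 14.3% to 22.4% for Icam2), shares far below those of macrophages. Whether these UMIs came from the B cells themselves or from free RNA was not tested. Ltbp1 was in 17.8%, 12.0%, 67.1% and 62.8% of macrophages, Tgfb2 in 33.6%, 13.6%, 46.5% and 45.0%, and Garnl3 in 3.51%, 6.15%, 45.9% and 44.0%. For these 3 genes every interval of libraries 3 and 4 lay above those of libraries 1 and 2.

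Aspa was in 8.95%, 7.16%, 26.7% and 19.4% of thinned macrophages, Vsig4 in 13.4%, 3.46%, 21.0% and 18.2%, and Wnt2 in 4.96%, 1.42%, 9.70% and 10.7%. All 3 were above their B cell share in every library, which was at most 3.42%. Nt5e was in 2.68%, 2.59%, 12.0% and 12.1% of macrophages against 3.99%, 2.55%, 1.52% and 2.38% of B cells. Over all macrophages of libraries 1 and 2 the Nt5e share was therefore at or near that of B cells, although a minority of those macrophages, at the Timd4 gate described further on, had far more of it. T cells had an Nt5e UMI in 13.7% to 18.3%, and CD73 is known as a surface enzyme of T cells too.

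**Figure D2:**
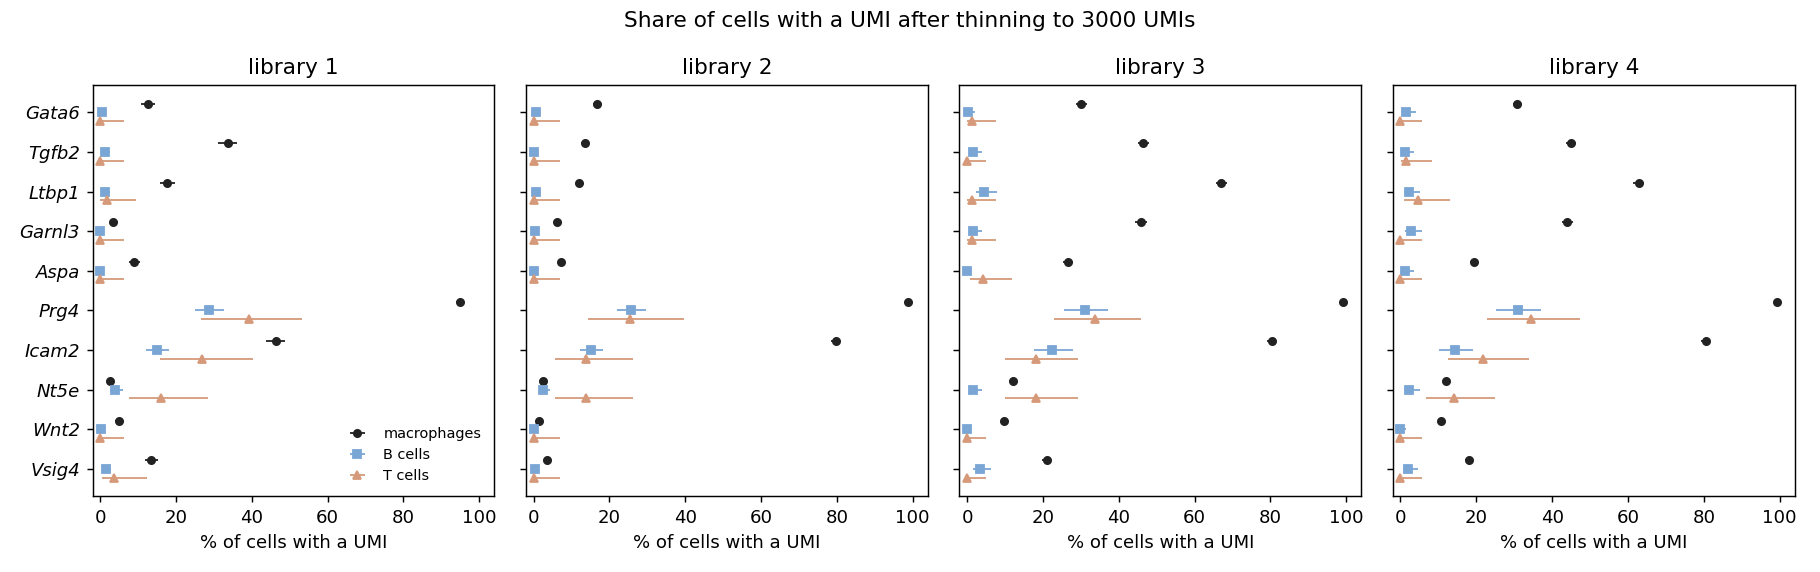
Share of cells with a UMI of each gene after thinning to 3000 UMIs, in percent, for macrophages (black), B cells (blue) and T cells (orange) of each library, with exact binomial 95% intervals. Macrophages lie to the right of the lymphocytes for all genes but Nt5e, for which the T cell share of 13.7% to 18.3% is the highest in every library.

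How the UMIs were spread over cells differed between members. For Gata6 the variance after thinning was 1.14 to 1.36 times the mean, where independent counting gives 1. No macrophage had 20 or more Gata6 UMIs in the full data (the highest had 16). The ratio of variance to mean depends on the level as well as on the spread, so it does not rank the members by evenness. Vsig4 had the highest ratio of the members, with a variance of 5.98 to 6.44 times its mean. In the full data 83.6%, 94.7%, 72.4% and 77.4% of macrophages had no Vsig4 UMI, while 62, 55, 584 and 503 cells had 20 or more and held 58.0%, 62.3%, 83.1% and 78.5% of all Vsig4 UMIs. After thinning, a Vsig4-positive cell carried 5.01, 3.98, 5.25 and 4.94 UMIs on average, so library 2 was lowest both in this value and in its share of positive cells. Wnt2, with a ratio of variance to mean of 2.04 to 2.80, Tgfb2, with 2.20 to 3.05, and the widespread Prg4, with 2.47 to 3.78, lay between.

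The next question was how far the other 9 genes went with Gata6 from cell to cell. Within each library, thinned macrophages with a Gata6 UMI (182, 697, 1298 and 1538 cells) were set against those without (1271, 3466, 3012 and 3450). Median depth before thinning was alike on both sides, with 8458 against 8573 UMIs in library 1 and 12615 against 12570 in library 2. All 9 genes were higher on the Gata6-positive side in all 4 libraries, whereas 472 of 4690 genes tested were positive in all 4 and 544 negative in all 4. The median log2 ratio was 0.58 over the 9 genes and -0.01 over all genes. That of the 9 genes was 0.25 without library 1 or without library 2, and 0.79 without library 3 or without library 4. None of the 8 genes tested reached the rule for a named difference, which asked for 20 CPM on the higher side and at least 2-fold in 1 direction in every library, and 0% of the 4690 genes did so in either direction.

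Tgfb2 and Ltbp1 were higher with a Gata6 UMI in all 4 libraries. Tgfb2 read 519 CPM with a Gata6 UMI and 242 without in library 1, 133 and 72.0 in library 2, 412 and 304 in library 3, and 408 and 308 in library 4. The log2 ratios were 1.10 (0.90 to 1.29), 0.88 (0.68 to 1.08), 0.44 (0.35 to 0.53) and 0.41 (0.32 to 0.49), with no overlap between the first pair of libraries and the last pair. For Ltbp1 they were 1.77 (1.51 to 2.02), 1.17 (0.94 to 1.39), 0.25 (0.18 to 0.33) and 0.23 (0.16 to 0.30), and here the 4 intervals fall into 3 steps. Wnt2 had 1.81 and 1.54 in libraries 1 and 2 and only 0.12 (-0.11 to 0.35) and 0.08 (-0.13 to 0.29) in libraries 3 and 4, where the interval includes 0.

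The remaining members gave smaller or less even ratios. Nt5e had 1.48, 1.39, 0.20 and 0.56, the first from 13 UMIs in Gata6-positive cells and the library 3 value with an interval that includes 0. Aspa had 1.12, 0.75, 0.15 and 0.14, where the intervals of libraries 3 (-0.01 to 0.31) and 4 (-0.04 to 0.32) include 0. Vsig4 had 1.33, 0.79, 0.37 and 0.02, and over all macrophages of library 4 the interval includes 0 (-0.08 to 0.11). In that library its ratios under and at the Timd4 gate, given further on, had opposite signs. Garnl3 had intervals above 0 in 3 libraries, with 1.27 (0.94 to 1.60), 0.45 (0.35 to 0.55) and 0.50 (0.41 to 0.60) for libraries 2 to 4, while its value of 0.53 in library 1 rested on 11 UMIs (-0.55 to 1.49). Prg4, in nearly every macrophage, had 0.63, 0.25, 0.19 and 0.18, and Icam2 had 0.30, 0.12, 0.08 and 0.08, all with intervals above 0.

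These ratios carry a limit. A cell without a Gata6 UMI at 3000 UMIs can still express the gene, as the library 3 share of 30.1% against 72.2% without thinning shows. That share differs between libraries, so the smaller ratios of libraries 3 and 4 were not read as a weaker link, and the difference between libraries was not tested.

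The 3 gate genes were read in the same split. Timd4, the gene of the phosphatidylserine receptor TIM-4, was higher with Gata6, at log2 ratios of 1.46, 0.63, 0.21 and 0.14. Folr2, folate receptor beta, was lower at -1.0, -0.43, -1.17 and -1.41, and Ccr2, the receptor that brings monocytes to tissues, at -1.86, -0.73, -3.10 and -1.42. The direction was the same in all 4 libraries for each. Markers of small or monocyte-derived macrophages, 10 genes with Ccr2 and Folr2 among them, summed to 7406, 11172, 2354 and 4464 CPM with a Gata6 UMI and to 16827, 14697, 4332 and 6722 without, and their part in the members' ratios was not tested. Mesothelial and stromal markers, 13 genes, summed to at most 0.514 CPM with a Gata6 UMI, with 11 to 13 of them at 0.

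Most members were higher in cells with more Gata6 UMIs. With 0, 1 and 2 or more Gata6 UMIs, Garnl3 read 13.9, 16.3 and 34.2 CPM in library 1, 22.6, 41.8 and 114 CPM in library 2, 242, 324 and 356 in library 3, and 234, 316 and 384 in library 4. The library 1 values at 1 and at 2 or more rest on 7 and 4 Garnl3 UMIs, and the intervals of that library overlap. Ltbp1 followed the same order in all 4 libraries, with 102, 315 and 470 CPM in library 1 and 52.4, 95.3 and 222 in library 2. Prg4 did so too, with 2317, 3435 and 4114 CPM in library 1 and 3671, 4086 and 4436 in library 4. The order broke for Vsig4 in library 4 (298, 302 and 298 CPM) and library 2, and for Tgfb2 and Icam2 in library 1, and the highest Gata6 class held only 39 cells in library 1 against 123, 252 and 367 in the others. In library 4, Ccr2 ran the other way with 47.6, 21.4 and 6.36 CPM, and Folr2 with 28.9, 13.1 and 3.64. How many of all genes rise with the number of Gata6 UMIs was not computed. The members' order therefore has no background and is not read as a trait of the members.

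**Figure D3:**
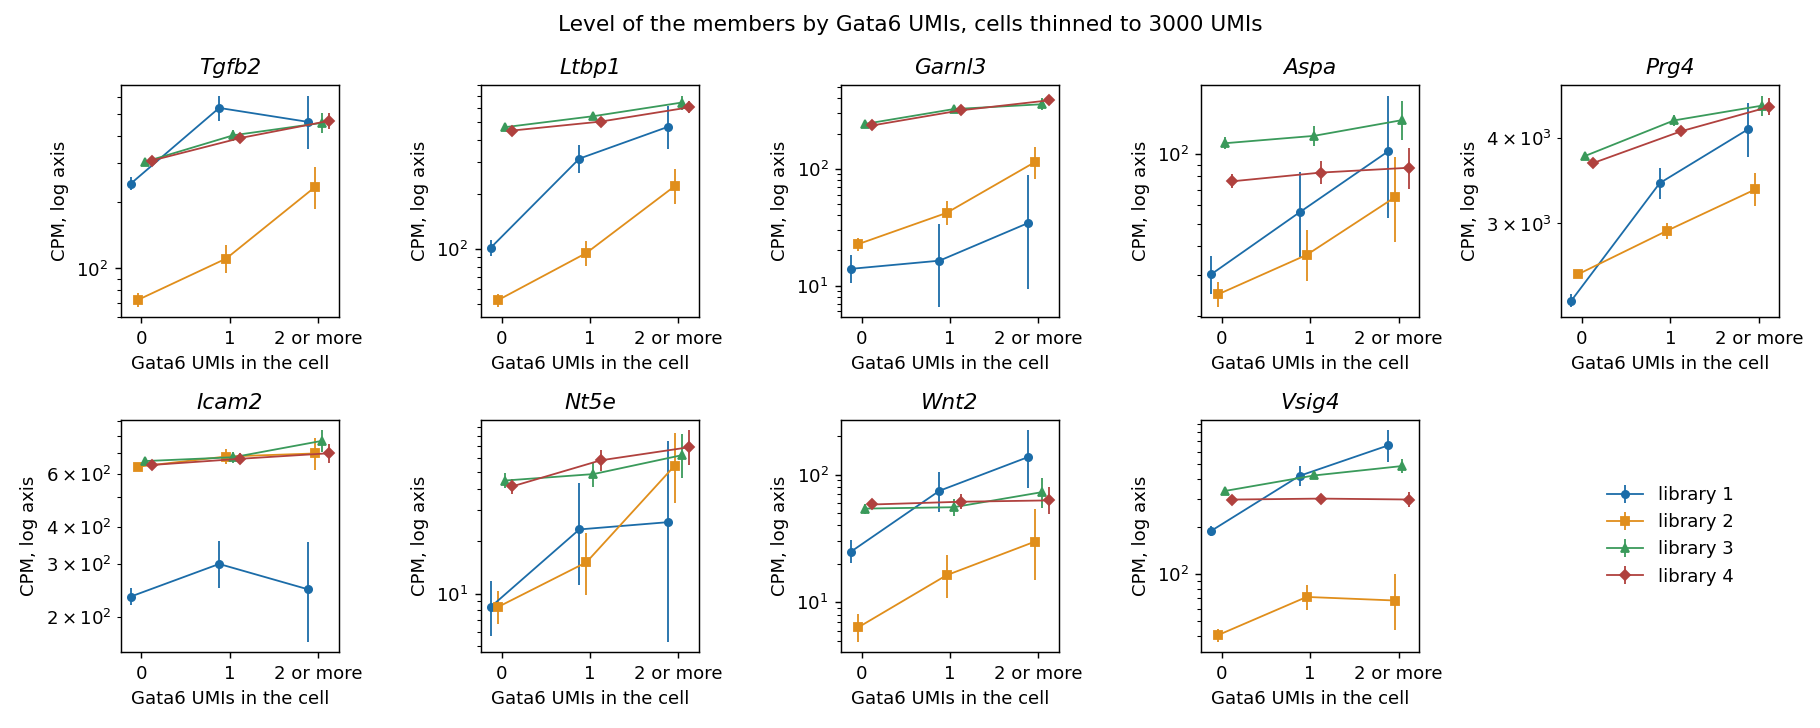
Level of 9 genes in CPM on a log axis against the number of Gata6 UMIs in the thinned cell (0, 1, 2 or more), 1 line per library, with exact Poisson 95% intervals. Most lines rise from left to right, steeply in libraries 1 and 2 for Ltbp1, and Vsig4 in library 4 stays at 298 to 302 CPM.

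Genes were ranked by likeness to Gata6, taken as the lowest of the 4 libraries' log2 ratios between Gata6-positive and Gata6-negative cells, over 4222 named genes at 20 CPM or more in the Gata6-positive cells of every library. A gene could thus enter through the Gata6-positive side alone. Garnl3 did so in library 1, at 20.2 CPM against 13.9. Nt5e did so in libraries 1 and 2, at 23.8 and 22.0 CPM against 8.39 and 8.37, so the ranks of both depend on this minimum. Garnl3 was first, with 0.45 as its lowest ratio, and Tgfb2 was next, with 0.41. The other 8 of the top 10 were Cd24a (lowest ratio 0.36), a surface glycoprotein, Vopp1 (0.31), Vmn2r26 (0.30), a gene annotated as a pheromone receptor, Fgd6 (0.29), Ptgis (0.29), the prostacyclin synthase, Rab27a (0.27), a GTPase of granule secretion, F5 (0.26), coagulation factor V, and Evi5 (0.24). Of the members outside the top 10, Ltbp1 ranked 14, Nt5e 23, Prg4 29, Aspa 55, Icam2 130 and Vsig4 352, and Wnt2 was below the minimum level. The order below the first few rests on small gaps: over 9 other settings Garnl3 and Vmn2r26 were in the top 10 in 8, Tgfb2 and Cd24a in 7, and Vopp1 in 3.

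Most members were higher in cells at the Timd4 gate. The gate held 122, 541, 2069 and 2655 macrophages, or 7.93%, 12.8%, 47.7% and 52.9% of libraries 1 to 4, and were somewhat deeper than the rest, with median UMIs of 8846, 14372, 14754 and 13752 against 8111, 12325, 13340 and 11994. Of the 10 members, 9 were higher in gated cells in all 4 libraries, the exception being Icam2, against 1108 of 4691 genes that were higher in all 4. The median log2 ratio was 1.22 over the members and 0.03 over all genes. That of the members was 0.57 without library 1 or without library 2, and 1.79 without library 3 or without library 4. No member reached at least 2-fold in every library, and 0.0426% of the 4691 genes did so upward and 0.0853% downward. Markers of small or monocyte-derived macrophages summed to 5187, 8651, 2345 and 3840 CPM in gated cells and to 18026, 14376, 5171 and 8982 in the rest, lower at the gate in each library. Proliferation genes summed to 34.5, 155, 78.8 and 58.2 CPM against 16.9, 97.5, 116 and 99.8, higher at the gate in libraries 1 and 2 only. Dendritic cell markers summed to 68.2, 3.50, 9.75 and 9.77 CPM against 20.8, 3.00, 8.22 and 13.2. The part of these lists in the result was not tested.

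Ratios were smaller in libraries 3 and 4 than in libraries 1 and 2 for 9 of the members, all but Icam2. Gata6 read 123, 108, 140 and 143 CPM in gated cells and 48.6, 56.8, 116 and 123 in the rest, so the gated cells of the 4 libraries were closer to each other than their other cells were. Garnl3 read 85.0, 128, 311 and 312 CPM in gated cells and 12.8, 14.1, 229 and 224 in the rest. That is a log2 ratio of 2.73 and 3.18 in libraries 1 and 2 but 0.44 and 0.48 in libraries 3 and 4, where cells under the gate read 229 and 224 CPM.

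Wnt2 had the largest ratio of the members in libraries 1 to 3. Its gated cells read 152, 44.0, 73.6 and 70.9 CPM and the others 19.6, 2.12, 35.2 and 44.1, which on the log2 scale is 2.95 (2.66 to 3.25), 4.36 (4.05 to 4.71), 1.06 (0.96 to 1.17) and 0.68 (0.59 to 0.78). In library 2, 364 of its 464 UMIs came from the 541 gated cells. Vsig4, the complement receptor, had the largest in library 4, with 2.60, 2.99, 0.96 and 1.24, and in library 1 it read 1019 CPM in gated cells against 168.

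The other members kept the direction with less. Nt5e had log2 ratios of 2.92, 3.47, 0.66 and 0.45, Ltbp1 2.23, 2.22, 0.42 and 0.48, and Aspa 1.36, 2.08, 0.55 and 0.75. Tgfb2 was the most even of the larger ones, with 1.36, 2.04, 0.83 and 0.76. Prg4 had 0.67, 0.39, 0.24 and 0.29. Icam2 did not separate these cells: its ratios were 0.15 (-0.02 to 0.32), -0.16 (-0.20 to -0.12), -0.03 (-0.05 to 0.00) and 0.07 (0.05 to 0.10).

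Inside the gates the link to Gata6 was not equally visible. Among cells under the Timd4 gate, all 9 genes were higher with a Gata6 UMI in all 4 libraries, with a median ratio from 0.14 for Icam2 to 1.12 for Nt5e. Several of these intervals include 0, among them Garnl3 in library 1 (-0.80 to 2.07, from 6 UMIs) and Wnt2 in libraries 3 and 4. Among cells at the gate, Tgfb2, Ltbp1, Nt5e and Prg4, 4 of the 9, kept the direction in all 4 libraries. The intervals of Ltbp1 in libraries 1, 3 and 4 and of Nt5e in libraries 1, 2 and 3 include 0. The share of all genes that kept 1 direction inside each gate was not computed, so these counts have no background and are not read as a trait of the members. Tgfb2 was the clearest there, at 0.67 (0.28 to 1.06), 0.75 (0.45 to 1.04), 0.23 (0.12 to 0.35) and 0.33 (0.23 to 0.43). Vsig4 changed sign among gated cells, with 1.10 (0.79 to 1.40) in library 1 and -0.22 (-0.33 to -0.11) in library 4. Among cells of library 4 under the gate, Vsig4 had 0.42 (0.25 to 0.60). The count among gated cells depended on the thinning: at 5000 UMIs or with no thinning, 8 of the 9 kept the direction. Library 1 had only 33 gated cells with a Gata6 UMI.

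Cells at the Folr2 gate had less of nearly all members. They were 854, 952, 321 and 303 cells, or 55.5%, 22.6%, 7.41% and 6.04% of macrophages, the opposite order to the Timd4 gate. Of the members, 9 were lower in all 4 libraries, the exception being Vsig4, against 433 of 4854 genes that were. The members' median log2 ratio was -1.0, and that of all genes was 0.05, 0.11, 0.15 and 0.16 in libraries 1 to 4. Of 8 members tested, Ltbp1 and Garnl3, 2 of the 8, were at least 2-fold lower in every library, a call that 0.0618% of the 4854 genes received. No member was that much higher, and 0.0824% of genes were. Leaving out library 2 raised the count to 4, with Tgfb2 and Nt5e added, and 12 of 4912 genes were then lower. Garnl3 met the minimum of 20 CPM in libraries 1 and 2 through the cells under the gate alone. It read 39.7 and 39.0 CPM there against 5.47 and 8.74 at the gate, so its call depends on this minimum.

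Other values moved with the Folr2 gate, and their part in the result was not tested. Proliferation genes summed to 25.0, 186, 203 and 208 CPM in gated cells and to 8.25, 78.3, 87.0 and 65.2 in the rest, higher at the gate in each library. Markers of small or monocyte-derived macrophages summed to 17246, 12394, 10627 and 12715 CPM against 15448, 13786, 3033 and 5469, lower at the gate in library 2 and higher in the others. Gated cells were also deeper, with median UMIs of 9125, 13885, 15178 and 15424 against 6702, 12247, 13857 and 12800.

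Ltbp1 read 38.9, 25.4, 157 and 135 CPM in Folr2-gated cells and 262, 81.5, 518 and 504 in the rest. The log2 ratios were -2.75 (-2.93 to -2.57), -1.68 (-1.84 to -1.52), -1.73 (-1.83 to -1.63) and -1.90 (-2.01 to -1.79). Garnl3 read 5.47, 8.74, 87.5 and 91.4 CPM against 39.7, 39.0, 288 and 289, a log2 ratio of -2.84, -2.16, -1.72 and -1.66. In libraries 3 and 4 the Folr2-gated cells still had more of both genes than the same cells of libraries 1 and 2.

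Gata6 itself read 31.1, 54.0, 70.9 and 75.3 CPM in Folr2-gated cells and 91.8, 68.1, 134 and 139 in the others, and the log2 values per library were -1.56 (-1.79 to -1.34), -0.33 (-0.45 to -0.22), -0.92 (-1.07 to -0.77) and -0.89 (-1.04 to -0.74). The contrast was weakest in library 2. Tgfb2 had -1.45, -0.67, -1.55 and -1.02, Wnt2 -1.67, -0.59, -1.22 and -0.88, and Aspa -1.11, -0.88, -1.01 and -0.80. Nt5e had -2.89, -2.30, -2.19 and -1.99 but was too low to be tested. Prg4 (-0.53, -0.23, -0.51 and -0.60) and Icam2 (-0.14, -0.02, -0.15 and -0.06) differed little. Vsig4 was the odd one out: lower at the gate in libraries 1, 3 and 4 (-0.61, -1.47 and -0.32) and higher in library 2 (0.54, 0.43 to 0.66).

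All 10 members were lower at the Ccr2 gate. It held 169, 801, 144 and 285 cells, or 11.0%, 19.0%, 3.32% and 5.68% of macrophages. That held in each of the 4 libraries, as it did for 605 of 4881 genes, with a median log2 ratio of -2.19 over the members and 0.06 over all genes. Of the 8 members tested, 5 were at least 2-fold lower in every library, Tgfb2, Ltbp1, Garnl3, Aspa and Vsig4, a call that 0.246% of the 4881 genes received. No member was that much higher, and 0.102% of genes were. Without library 2 the rule called 6 members and 30 genes lower in place of 12. Nt5e and Wnt2 were at least 2-fold lower too but were under the minimum level, Nt5e in libraries 1 and 2 and Wnt2 in library 2. A gene could meet the minimum of 20 CPM through the cells under the gate alone. Garnl3 and Aspa did so in libraries 1 and 2, Ltbp1 in library 1 (14.1 CPM at the gate) and Vsig4 in library 2 (14.4 CPM). The calls of these genes therefore depend on this minimum. With the gate set after thinning, Tgfb2 and Garnl3 lost their call, and Tgfb2 lost it at a mitochondrial limit of 5%.

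Tgfb2 read 50.5, 44.4, 76.7 and 75.3 CPM in Ccr2-gated cells and 295, 90.6, 347 and 341 in the rest. The log2 ratios were -2.55 (-2.86 to -2.25), -1.03 (-1.17 to -0.89), -2.18 (-2.40 to -1.97) and -2.18 (-2.34 to -2.02), so library 2 was only just past 2-fold. Vsig4 had -2.34, -1.99, -2.35 and -3.31, and its level in gated cells was 53.2, 14.4, 77.1 and 32.6 CPM. Garnl3 had -2.96, -2.73, -2.54 and -3.13, the first from 5 UMIs in gated cells. Ltbp1 had -3.35, -1.75, -2.24 and -2.15, and Aspa -1.95, -1.51, -1.64 and -1.93.

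Gata6 was among the less affected, at 15.7, 45.5, 50.3 and 73.4 CPM in Ccr2-gated cells against 61.2, 69.1, 131 and 138. Its log2 ratios were -1.96 (-2.55 to -1.43), -0.60 (-0.74 to -0.47), -1.39 (-1.66 to -1.13) and -0.91 (-1.08 to -0.75). A Gata6 UMI was in 13.0%, 37.6%, 40.3% and 51.2% of gated cells at full depth, so Gata6 was lower there and still detected. Prg4 had -1.39, -0.32, -0.97 and -0.95, and Icam2 had -0.99, -0.15, -0.48 and -0.40. For both of these, library 1 differed most and library 2 least.

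Other genes moved at the Ccr2 gate beside the members, and their part in the result was not tested. Dendritic cell markers, 7 genes, summed to 54.8, 7.54, 55.7 and 76.5 CPM in gated cells against 20.0, 1.96, 7.17 and 6.90 in the rest. Proliferation genes summed to 9.22, 174, 488 and 406 CPM against 19.9, 89.3, 81.4 and 54.1, higher in gated cells in 3 of the 4 libraries. Of the markers for small or monocyte-derived macrophages, the 9 other than Ccr2 summed to 48255, 18369, 19379 and 20366 CPM against 11663, 12168, 3077 and 5053. Natural killer cell markers summed to 17.2 and 12.4 CPM in gated cells of libraries 3 and 4 against 0.760 and 0.127, and to at most 0.180 in libraries 1 and 2. B cell markers summed to 177, 22.6, 24.3 and 21.9 CPM against 144, 18.2, 7.78 and 6.23, higher at the gate in each library. The median mitochondrial share was lower at the gate in all 4, at 3.77%, 3.31%, 3.77% and 3.82% against 5.29%, 3.73%, 4.25% and 4.08%. Mesothelial and stromal markers stayed at or below 0.715 CPM on both sides.

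**Figure D4:**
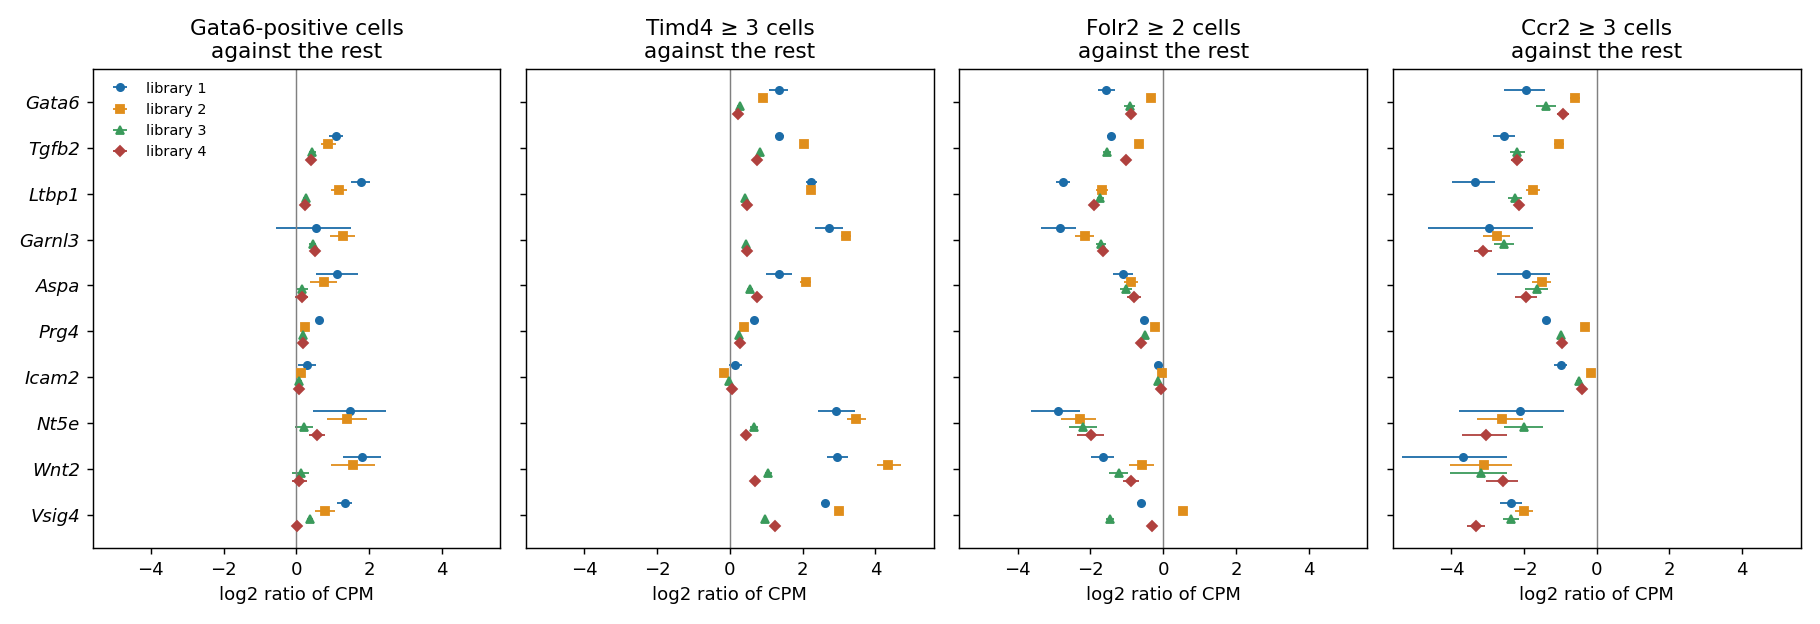
Log2 ratio of CPM for each gene in 4 splits (Gata6-positive cells, Timd4-gated, Folr2-gated and Ccr2-gated cells, each against the remaining macrophages), with 1 point per library and exact 95% intervals. Points lie right of 0 for Gata6 and Timd4 and left of 0 for Folr2 and Ccr2, apart from Icam2 near 0 at the Timd4 gate and Vsig4 of library 2 at 0.54 at the Folr2 gate.

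With the gates combined, cells at the Timd4 gate only had the highest Gata6 share in every library. Cells at the Timd4 gate only (74, 387, 1924 and 2500) had a Gata6 UMI after thinning in 39.7% (28.5% to 51.9%), 30.1% (25.5% to 34.9%), 34.5% (32.4% to 36.7%) and 33.7% (31.9% to 35.6%). All 4 intervals overlap, whereas the shares over all macrophages ran from 12.5% to 30.8%. Cells at no gate (523, 2243, 1971 and 1973) had one in 19.5%, 16.9%, 29.6% and 31.0%, with libraries 1 and 2 below libraries 3 and 4 and no overlap between those pairs. Cells at the Folr2 gate only had one in 7.68%, 15.4%, 16.8% and 15.3%, and at the Ccr2 gate only in 4.65%, 11.9%, 5.71% and 14.7%.

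The levels of Garnl3 and Nt5e differed more between libraries in cells at no gate than in cells at the Timd4 gate only. Garnl3 read 148, 175, 328 and 327 CPM in cells at the Timd4 gate only, and 32.8, 21.6, 260 and 268 CPM in cells at no gate. The lowest of these were libraries 1 and 2 in both classes. Nt5e read 88.0, 66.0, 64.7 and 53.4 CPM in cells at the Timd4 gate only, where libraries 1 and 2 were not low, and 17.9, 6.27, 43.9 and 44.6 at no gate. Tgfb2 in the same 2 classes read 906, 283, 451 and 407 CPM and 447, 64.7, 270 and 270, so library 1 was highest in both and library 2 lowest in both. Vsig4 read 1324, 188, 528 and 412 CPM at the Timd4 gate only, where library 1 was again highest. At no gate it read 210, 24.0, 284 and 197, where library 3 was highest. Library 2 was lowest in both.

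**Figure D5:**
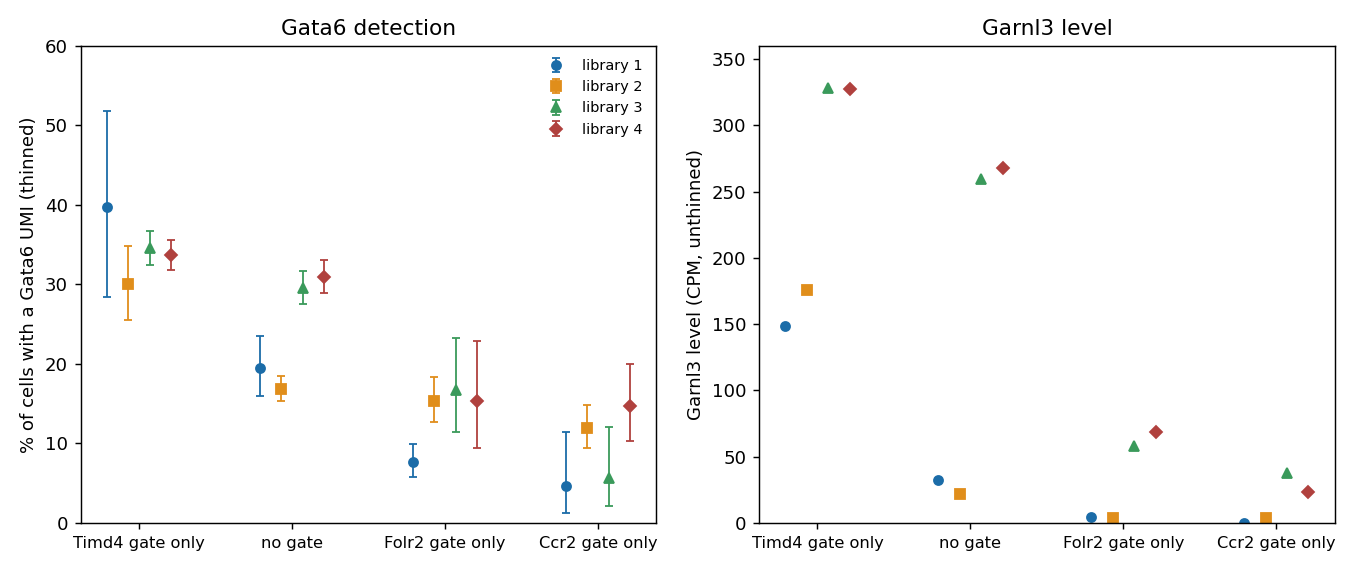
Left, percent of thinned macrophages with a Gata6 UMI by gate class and library, with exact binomial 95% intervals; right, Garnl3 level in CPM in the same classes, drawn without error bars. Gata6 detection is 30.1% to 39.7% in Timd4-only cells of all libraries, while Garnl3 of libraries 1 and 2 is under 176 CPM in every class and reaches 328 CPM in library 3.

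Members were found in the same cells more often than their separate shares give. For the 45 pairs of the 10 genes, the number of thinned macrophages with both genes was divided by the number that independent detection would give. This ratio was above 1 in all 4 libraries for 42 pairs and below 1 in all 4 for none, as a description over cells that share a library and a depth. Over the 19841850 pairs of the 6300 genes at 20 CPM or more in any library, 9.26% were above 1 in all 4 and 6.21% below. Prg4 is in 9 of the 45 pairs, where the ratio can hardly leave 1, and 33 of the other 36 pairs were above 1 in all 4. Icam2, in 79.6% to 80.5% of thinned macrophages of libraries 2 to 4, also leaves little room above 1. Its pairs among those 33 had a lowest ratio between 1.01 with Garnl3 and 1.05 with Nt5e, given without intervals. Garnl3 with Nt5e gave 7.31, 8.28, 1.38 and 1.35, the first from 10 cells with both. Nt5e with Wnt2 gave 7.24, 11.8, 1.31 and 1.18, and Wnt2 with Vsig4 gave 3.42, 5.88, 1.48 and 1.56. With Gata6 itself the ratio was near 1 for Prg4, which nearly every cell has, and reached 2.77 for Wnt2 in library 1. The 3 pairs that missed were those of Icam2 with Tgfb2, Wnt2 and Vsig4.

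Most other listed genes of large peritoneal macrophages had ratios of the same sign as the members. Of 18 other large peritoneal macrophage genes, 17 were tested, and 15 were higher in Gata6-positive cells in all 4 libraries and 0 lower, though none reached 2-fold in each. Over all 4690 genes tested in that split, 472 were higher in all 4 and 544 lower. The list was drawn up with earlier results of these data known. Some of its ratios were near 0, such as those of Klf2 (0.10, 0.03, 0.03 and 0.03), and no intervals are given for list genes. The same 17 genes gave 12 higher and 1 lower, Slpi, at the Timd4 gate, 1 higher and 13 lower at the Folr2 gate, and 0 higher and 15 lower at the Ccr2 gate. Over all genes, 1108 of 4691 were higher and 578 lower at the Timd4 gate. At the Folr2 gate 2142 of 4854 were higher and 433 lower, and at the Ccr2 gate 1152 of 4881 and 605. Ptgis, the prostacyclin synthase, passed the rule at the Folr2 gate (-2.47, -2.49, -2.09 and -2.08) and at the Ccr2 gate (-3.18, -1.70, -1.99 and -2.76). Cxcl13, the chemokine that draws B cells, passed at the Ccr2 gate (-2.74, -1.95, -2.81 and -3.72).

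Few of the TGF-beta and Wnt partner genes were expressed at the level needed. Of 22 TGF-beta pathway genes, 21 were in the matrix, 7 or 8 were tested in each split, and none passed the rule in any. Tgfb1, the ligand most macrophages make, read 161, 145, 137 and 149 CPM, a narrow range beside that of Tgfb2, and was not of 1 sign in the Gata6 split (0.04 in library 1, -0.04 in library 3). The receptor Tgfbr2 read 187, 100, 74.9 and 70.2 CPM and Nrros, which anchors latent TGF-beta on myeloid cells, 235, 108, 78.3 and 83.1, both highest in library 1. Of 32 Wnt pathway genes, 4 or 5 were tested and none passed. No other Wnt ligand listed exceeded 1.75 CPM in any library, and the Wnt secretion factor Wls read 99.2, 56.8, 43.0 and 44.0 CPM.

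Around CD73, Entpd1, which makes the AMP that CD73 uses, read 59.3, 43.5, 39.8 and 41.1 CPM and did not pass in any split, nor did any of the 10 adenosine genes. Slc29a1, an adenosine transporter, was higher at the Folr2 gate in all 4 libraries (1.01, 0.51, 1.75 and 1.30) but missed 2-fold in library 2. Of the 12 adhesion and complement genes, none passed, and Itgb2, the beta 2 integrin chain that ICAM-2 binds, was higher at the Timd4 gate in all 4 libraries (0.76, 0.50, 0.31 and 0.38). Among 23 transcription factors and retinoid receptors, Maf, a factor of resident macrophages in several tissues, was the 1 that passed, higher at the Folr2 gate with 1.16, 1.16, 1.70 and 1.46. The retinoid receptors Rara, Rarg, Rxra and Rxrb were detected in every library and passed in none of the splits.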

How the data were processed

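Peritoneal F4/80-positive cells of 4 mouse samples, 1 in each group, were measured as single-cell RNA. Values are UMI counts, whole numbers in a single matrix (31253 genes, 26811 barcodes) that the authors deposited; its header names Cell Ranger 5.0.1. CASAVA 1.8, Seurat and mm10 appear in the submitters' processing notes with no role. The annotation, intron counting, and any removal of free RNA or doublets: not given in the sources used here. Total counts were 40321459, 74067998, 73429015 and 78083803 UMIs for barcode endings 1 to 4, which no label ties to a sample, so the groups were not compared. The members and lists were chosen with earlier results of these data known.

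UMIs were summed over cells per library and divided by the library's macrophage total (CPM, per 1000000), and 3 counts of that total, 0.0445 to 0.226 CPM, is the limit that a count of 0 allows. CPM of 3' tags does not depend on gene length; levels were not ranked between genes. Shares used cells thinned to 3000 UMIs with a fixed random seed. B and T cells were barcodes with 2 or more UMIs of Cd79a or Cd3e, none of the other gene and none of Adgre1. In each split the splitting gene was left out of the totals, a prior count of 0.5 was added, and intervals were exact (Poisson, Clopper-Pearson or conditional binomial). A gene was tested with 20 CPM on the higher side in every library and called with a log2 ratio of at least 1 in 1 direction in all 4. All members are given, the 10 genes most like Gata6 are named by rank, and list genes at 20 CPM in any library may be named. No doublet caller was run; leaving out the 5% of macrophages with most UMIs was tried instead. On simulated counts of all 31253 genes, with 4-fold changes made only in genes well above the minimum of 20 CPM, the rule recovered 100% of the changes in an unthinned split and 98% in a thinned one. It called 0 unchanged genes. The simulated cells varied by counting error and depth alone. Smaller changes and genes near the minimum were not simulated, so the rule's recovery there is not known. Positions come from GENCODE M21 on GRCm38. Python 3.11.15, numpy 2.4.6, scipy 1.17.1 and pandas 2.3.3 were used.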

Additional observations from a re-analysis of the deposited data

Results flagged for a closer look

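For 2 genes the direction at a gate differed between libraries, with intervals on opposite sides of 0; the difference itself was not tested, since each group is 1 library. Vsig4 was higher in Folr2-gated cells of library 2, at a log2 ratio of 0.54, and lower in those of libraries 1, 3 and 4, at -0.61, -1.47 and -0.32. Vsig4 was in 6.09% of the Folr2-gated cells of library 2 and in 5.02% of the others. Icam2 was lower in Timd4-gated cells of library 2, at -0.16, and higher in those of library 4, at 0.072.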

How the results depend on the processing

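No paired analysis was possible because the 4 groups share only replicate number 1 and no library is tied to a group; each split already sets cells against others of the same library. Of 688 recomputed median ratios 4 changed sign, all of Icam2 at the Timd4 gate, near 0 throughout: 0.023 became -0.017 with 4 Adgre1 UMIs, -0.0094 with ratios centred on the median of all genes, and -0.027 without library 1 or without library 4. In size, 200 summary values stayed within their limits and 29 moved, and of single values 543 stayed and 154 moved. The number of members called was as follows. At the Timd4 gate, 0 members became 3 (Tgfb2, Wnt2, Vsig4) with a 1.5-fold rule or against cells with 0 UMIs, and 0 to 1 with each library left out, Vsig4 without library 3 and Wnt2 without library 4. Over all genes, 15 of 4691 were higher with the 1.5-fold rule and 7 of 4697 against cells with 0 UMIs. At the Folr2 gate, 2 became 1 at a minimum of 50 CPM, 4 with a 1.5-fold rule, 3 at 5 CPM (with Nt5e) and 2 to 4 with each library left out. Over all genes, 1 of 2321 was lower at 50 CPM, 11 of 4854 with the 1.5-fold rule and 11 of 8441 at 5 CPM. At the Ccr2 gate, 5 became 3 at 50 CPM, 3 with the gate set after thinning (without Tgfb2 and Garnl3), 4 at a mitochondrial limit of 5% (without Tgfb2), 6 with a 1.5-fold rule (with Gata6), 7 at 5 CPM (with Nt5e and Wnt2) and 5 to 6 with each library left out. Over all genes, 6 of 2328 were lower at 50 CPM, 8 of 4849 with the thinned gate and 9 of 4803 at the mitochondrial limit of 5%. With the 1.5-fold rule 29 of 4881 were lower, and at 5 CPM 26 of 8485. The link within Timd4-gated cells, 4 of 9 genes, became 8 with thinning to 5000 UMIs and 8 with no thinning, alternatives chosen after seeing the data, as were all those for pairs, for the link within the gate, for the members' medians and for the genes most like Gata6. No count over all genes was made for the link within the gate. The Gata6 level of 54.9 CPM in library 1 became 50.2 with 1 Adgre1 UMI and 67.5 with 4, and that of 64.4 in library 2 became 61.4 at a mitochondrial limit of 5% and 68.7 with 4 Adgre1 UMIs. The Gata6 share was 15.7% and 18.1% in libraries 1 and 2 with 4 Adgre1 UMIs. Thinned to 2000 UMIs it was 9.35%, 11.9%, 22.1% and 23.1% in libraries 1 to 4, to 5000 UMIs 19.6%, 24.5%, 44.3% and 44.8%, and unthinned 25.6%, 44.7%, 72.2% and 70.5%. Calls over all genes are few and also move: with each library left out, 5 to 38 genes were higher and 12 to 30 lower at the Ccr2 gate against 5 and 12, 4 to 22 and 3 to 12 at the Folr2 gate against 4 and 3, and 2 to 6 and 4 to 10 at the Timd4 gate against 2 and 4. The largest counts came without library 2 at the Ccr2 gate (38 and 30), without library 1 (22 higher) or 2 (12 lower) at the Folr2 gate, and without library 4 (6 higher) or 2 (10 lower) at the Timd4 gate. Depth limits Gata6, Nt5e and Aspa, which averaged 1.46 to 2.58 UMIs in a positive cell.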
